A study of Homo sapiens with 4 samples.

Results

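The miR-17-92 cluster is a group of microRNAs cut from 1 long noncoding transcript, MIR17HG. The 9 members described were chosen by name, as mature products of that polycistron, from the 2656 mature miRNAs counted, and 9 of 9 passed the filter on low counts. They were measured by small RNA-seq in cortical interneurons differentiated from H1 cells, a single human embryonic stem cell line. Ethanol-exposed cultures (replicates 1 and 2) were kept in neuronal maturation medium with around 50 to 100 mM ethanol for 7 days. Unexposed cultures (replicates 1 and 2) were kept for 7 days without it, and the methods describe a further 24 h free of ethanol before collection of the exposed cells. Both groups share the cell line and the medium, and the cultures were set up in duplicate.

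A polycistronic miRNA transcript folds into several hairpins, each of which Drosha and Dicer cut into a 5p and a 3p arm. One arm is usually retained by Argonaute as the guide strand, and the other, the passenger strand, is mostly lost. A guide finds messenger RNAs through its seed, bases 2 to 8 from the 5′ end, so miRNAs with a shared seed can act on shared targets. The miR-17-92 cluster is driven by MYC and E2F factors, is best known as an oncogenic miRNA cluster, and is active in dividing neural progenitors, where it favours proliferation over cell cycle exit. Related clusters, miR-106a-363 on the X chromosome and miR-106b-25 within an intron of MCM7, arose by duplication and hold miRNAs with the same seeds.

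The hairpins lie in the order MIR17, MIR18A, MIR19A, MIR20A, MIR19B1 and MIR92A1 on the plus strand of chromosome 13, from 91350605 to 91351391 of GRCh38.p14 (RefSeq), a stretch of 787 bases. In GENCODE 29 on GRCh38, MIR17HG runs from 91347820 to 91354579. Each of the 6 hairpins lies in an exon in 2 of its 3 transcripts and in an intron in 1. The deposited counts carry no coordinates and the submitters' processing notes name hg19, so these positions only place the genes. A RefSeq sequence was found for 9 of the 9 members.

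The members are shown by seed family, because the seed sets which messenger RNAs a miRNA can bind. Sequences are written 5′ to 3′ with the seed in capitals. The miR-17 family, whose known targets include the cell cycle inhibitor CDKN1A and the apoptosis gene BCL2L11, has 2 members here.
hsa-miR-17-5p: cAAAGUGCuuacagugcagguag
hsa-miR-20a-5p: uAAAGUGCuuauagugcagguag
The miR-18 family, with 1 member, has a seed that differs from it by a single base.
hsa-miR-18a-5p: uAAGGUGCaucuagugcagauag
The miR-19 family has 2 members.
hsa-miR-19a-3p: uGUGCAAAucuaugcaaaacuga
hsa-miR-19b-3p: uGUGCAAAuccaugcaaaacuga
The miR-92 family, named in vascular biology as a repressor of the integrin gene ITGA5, has 1.
hsa-miR-92a-3p: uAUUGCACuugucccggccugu
The other members come from the arms opposite miR-17-5p, miR-18a-5p and miR-20a-5p, and each has a seed that no other counted miRNA of the RefSeq table shares.
hsa-miR-17-3p: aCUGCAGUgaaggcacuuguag
hsa-miR-18a-3p: aCUGCCCUaagugcuccuucugg
hsa-miR-20a-3p: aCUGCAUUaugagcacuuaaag

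miR-19a-3p and miR-19b-3p differ by 1 substitution (U11C, counted from the 5′ end), and miR-17-5p and miR-20a-5p by 2 (C1U and C12U). GC bases made up 34.8% of miR-19a-3p and 39.1% of miR-19b-3p, against 54.5% of miR-92a-3p and 56.5% of miR-18a-3p. RefSeq places miR-19b-3p and miR-92a-3p at a further gene each, MIR19B2 and MIR92A2 on the X chromosome, so their counts can hold reads of both clusters. The other 7 members have 1 precursor gene.

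The libraries held between 12100425 and 24858230 counts, and each exposed library was deeper than each unexposed one. Levels are given in CPM, the count scaled to a common library total, after scaling by the trimmed mean of M values (TMM), with factors from 0.846 in unexposed replicate 1 to 1.13 in exposed replicate 1. A mature miRNA is read whole, so no correction for length was applied. The limit that a count of 0 allows, 3 counts, came to between 0.121 and 0.248 CPM before scaling. Neuronal miRNAs (miR-9, miR-124-3p, miR-128-3p and others, 10 listed) summed to 311000 to 490450 CPM, mostly from miR-9-5p and miR-7-5p. These were at 157352 to 254022 CPM and 79250 to 187070 CPM, while miR-124-3p was at 2190 to 5406 CPM. Pluripotency miRNAs (9 listed) summed to 2.70 to 4.20 CPM, with miR-367-3p, miR-371a-3p and miR-373-3p at 0 in each library. The leukocyte miRNAs miR-142-3p and miR-223-3p were also at 0, while endothelial miR-126-3p was at 801 to 1012 CPM. The 4 glial miRNAs summed to 255 to 308 CPM and the 8 mesenchymal and muscle miRNAs to 284 to 506 CPM, highest in unexposed replicate 1. These lists do not tell an interneuron from another neuron, and no list for neural progenitors was examined. The neuronal sum does not give the share of neurons in the cultures.

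The members differed in counts by more than 4 orders of magnitude, but the highest, miR-92a-3p, can also hold reads of MIR92A2. Of the members with 1 precursor gene, miR-20a-5p had 1694 to 2733 times the counts of miR-20a-3p. How evenly the library preparation captured different miRNAs was not measured, so ratios between miRNAs or arms compare counts. In each library the highest member was miR-92a-3p and the lowest miR-20a-3p, and the ratio of their counts lay between 15815 and 39604. miR-92a-3p was at 23558 and 23605 CPM with ethanol and 21454 and 23714 CPM without. It ranked between 9 and 13 among all miRNAs of a library. It held between 78.6% and 89.5% of the members' counts, so a sum over the members mostly reports this 1 miRNA.

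miR-20a-5p and miR-17-5p came next. miR-20a-5p was at 1583 and 2622 CPM with ethanol and 3707 and 1975 CPM without, and miR-17-5p at 1129 and 1535 CPM and at 2056 and 1305 CPM. Their ranges overlapped, but miR-20a-5p exceeded miR-17-5p in 4 of 4 libraries, by 1.40 to 1.80 times.

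Between these guide strands and the rest lay a wide gap. miR-17-5p was 37.4 to 70.5 times miR-18a-3p, which was at 30.1 and 26.9 CPM with ethanol and 29.2 and 27.6 CPM without. miR-18a-5p was at 11.98 and 11.5 CPM and at 11.9 and 17.3 CPM.

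The miR-19 guides stood at a similarly low level. miR-19b-3p was at 8.33 and 9.37 CPM with ethanol and 20.9 and 12.2 CPM without. Its place beside miR-18a-5p was not settled, since miR-18a-5p was the higher in 3 of 4 libraries. miR-19a-3p was at 2.42 and 3.20 CPM and at 9.33 and 3.73 CPM, and it could not be ranked against miR-17-3p, with each the higher in 2 of the 4 libraries.

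The passenger strands miR-17-3p and miR-20a-3p were low as well. miR-17-3p was at 4.88 and 2.71 CPM with ethanol and 3.65 and 4.66 CPM without. miR-20a-3p was at 0.595 and 1.19 CPM and at 1.36 and 1.17 CPM, on 15 to 29 counts per library. The 95% Wilson interval of its unscaled share in exposed replicate 1 was 0.409 to 1.11 CPM, which covers counting error only, since these reads carry no molecular identifiers.

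**Figure D1:**
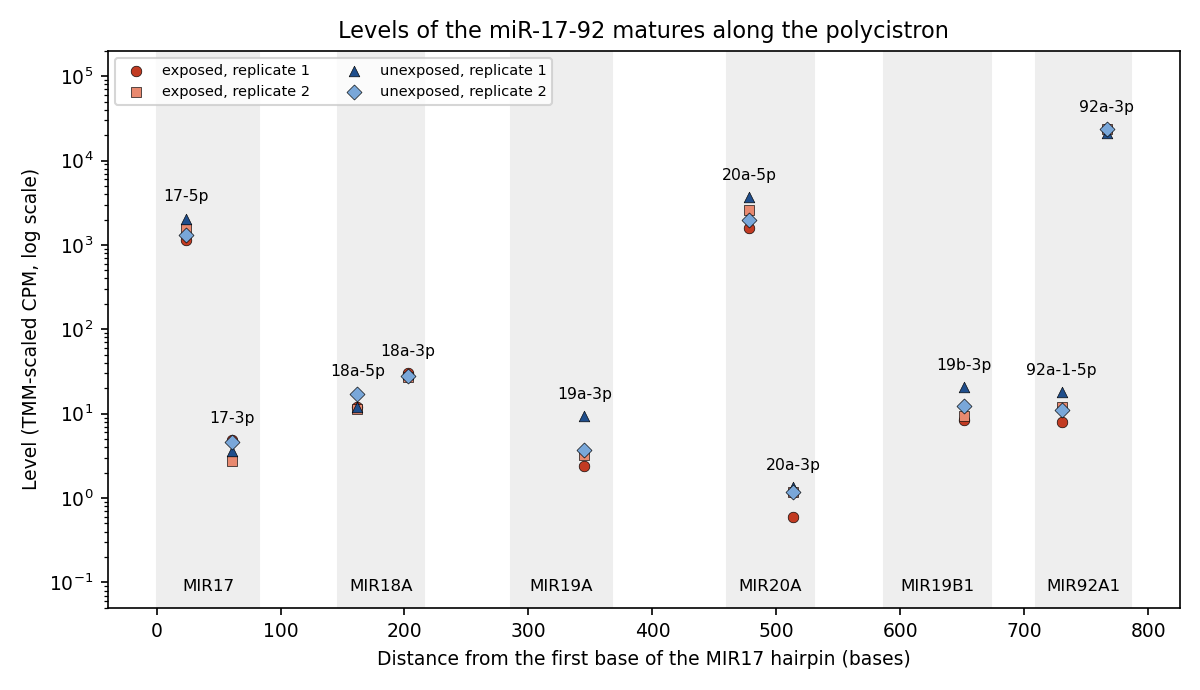
Level of each member and of miR-92a-1-5p (TMM-scaled CPM, log axis) against its distance in bases from the start of the MIR17 hairpin, 1 point per library; grey bands are hairpins. miR-92a-3p at the 3′ end sits between 21454 and 23714 CPM in all 4 libraries, while miR-19a-3p, between miR-18a and miR-20a, is between 2.42 and 9.33 CPM.

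The arm with more counts changed from hairpin to hairpin. The hairpins of miR-18a and miR-20a are shown because their dominant arms lie on opposite sides. The arms are in capitals and the 5p arm comes first.
MIR18A: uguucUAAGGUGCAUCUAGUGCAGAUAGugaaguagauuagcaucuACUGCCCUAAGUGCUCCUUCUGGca
MIR20A: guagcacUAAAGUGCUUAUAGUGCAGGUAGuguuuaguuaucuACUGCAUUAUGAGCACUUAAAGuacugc
MIR18A lies at chr13:91350751-91350821 and MIR20A at chr13:91351065-91351135, both on the plus strand of GRCh38.p14. At MIR20A the 5p arm had 1694 to 2733 counts for each count of the 3p arm. At MIR17 the 5p arm likewise dominated, by 231 and 566 times with ethanol and 564 and 280 times without. At MIR18A the 3p arm had more counts in 4 of 4 libraries. The 5p count was 0.397 and 0.428 of the 3p count with ethanol and 0.407 and 0.628 without. For the remaining 3 hairpins the counted reads were almost all of the 3p arm. The counts of miR-19b-3p and miR-92a-3p can also hold reads of MIR19B2 and MIR92A2, so they do not give the balance at MIR19B1 and MIR92A1 alone. The 5p arms miR-19a-5p and miR-19b-1-5p, which are not members, had at most 1 count in any library. miR-92a-1-5p, the 5p arm of MIR92A1, had 200 and 289 counts with ethanol and 211 and 143 without, or 0.0337% to 0.0834% of the miR-92a-3p counts.

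Ratios between arms are taken within a library and do not depend on scaling. The log2 ratio of miR-18a-5p to miR-18a-3p was -1.28 ± 0.0761 (SD, n = 2) in exposed and -0.98 ± 0.441 (SD, n = 2) in unexposed cells. A two-sided exact permutation test gave p = 0.667. For the arms of miR-17 the mean log2 ratio was 8.49 in exposed and 8.62 in unexposed cells, and for those of miR-20a 11.20 and 11.03, with an exact permutation p of 1 for each. The ratio of miR-19b-3p to miR-19a-3p was 3.44 and 2.92 with ethanol and 2.24 and 3.27 without (exact permutation p = 0.667). In none of the 6 ratios compared were the exposed and unexposed libraries apart, and the adjusted p over the 6 was 1 for each. With 2 cultures per group the smallest two-sided exact p is 0.333, so these tests could not pass a threshold of 0.05, and the p values cover only the spread between these cultures.

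Ethanol exposure was compared with no exposure by edgeR's quasi-likelihood test over all 863 miRNAs that passed the filter. Of the 9 members, 2 had an unadjusted P under 0.05, namely miR-19a-3p and miR-19b-3p, both lower in exposed cells. Over all tested miRNAs 4.52% had such a P, and 1.97% had it with a lower level in exposed cells. By fold change 7 of the 9 members were lower and 2 higher, and 442 of all 863 tested miRNAs were lower. The number of members lower was 6 by library size alone and 9 with upper quartile scaling. Their median log2 fold change was -0.34 with TMM, beside -0.010 over all tested miRNAs. None of the members had an adjusted p under 0.05 in edgeR (0 of 9, and 0 of all tested), and their lowest was 0.922. limma-voom and DESeq2 also gave 0 adjusted calls. The unadjusted P was under 0.05 for 39 of all tested miRNAs in edgeR, 31 in limma-voom and 28 in DESeq2. These are bulk cultures, in which fewer cells expressing a miRNA and less of it per cell cannot be told apart.

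With all 4 libraries, the miR-19 guides had the largest fold changes of the cluster. Without unexposed replicate 1, miR-18a-5p was further from 0, at -0.57, than either of them. miR-19a-3p had 61 and 78 counts with ethanol and 110 and 48 without. Scaled by TMM, it averaged 2.81 ± 0.555 CPM (SD, n = 2) after exposure and 6.53 ± 3.96 CPM (SD, n = 2) without. On the log2 scale the fold change was -1.21 (standard error 0.45, 95% interval -2.26 to -0.16), a 2.31-fold lower level. Both exposed libraries lay below both unexposed libraries, but unexposed replicate 2 (3.73 CPM) stood close to exposed replicate 2 (3.20 CPM), and unexposed replicate 1 stood far above. edgeR's unadjusted P was 0.0290 and the exact permutation p 0.333.

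miR-19b-3p behaved alike. It averaged 8.85 ± 0.735 CPM (SD, n = 2) after exposure and 16.5 ± 6.12 CPM (SD, n = 2) without, on 157 to 246 counts per library. The log2 fold change was -0.90 (standard error 0.33, 95% interval -1.67 to -0.13), where edgeR gave an unadjusted P of 0.0279 and the exact permutation p was 0.333. By library size alone the value for miR-19b-3p was -0.72, and edgeR's unadjusted P was then 0.0828. Again unexposed replicate 1 was the highest library. Without it the log2 fold changes were -0.42 for miR-19a-3p and -0.47 for miR-19b-3p. Without unexposed replicate 2 they were -1.76 and -1.27. Without exposed replicate 1 they were -1.02 and -0.82, and without exposed replicate 2 they were -1.42 and -0.98. Each of these fits leaves 1 library in a group, so no P is given for them.

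The miR-17 family guides overlapped between the groups. miR-20a-5p had a log2 fold change of -0.43 (95% interval -1.27 to 0.40) and miR-17-5p of -0.34 (-0.996 to 0.33). Unadjusted P was 0.262 and 0.274 in edgeR. Without unexposed replicate 1 their log2 fold changes were 0.081 and 0.022. Without unexposed replicate 2 they were -0.85 and -0.66. Of the passenger strands, miR-20a-3p was at -0.50 in edgeR (95% interval -1.51 to 0.52) and miR-17-3p at -0.13 (-0.998 to 0.74). The former was at -0.080 without exposed replicate 1 and -1.07 without exposed replicate 2.

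miR-92a-3p and miR-18a-3p lay nearest to 0. miR-92a-3p had a log2 fold change of 0.062 (95% interval -0.50 to 0.62, an unadjusted P of 0.803 in edgeR), negative under upper quartile scaling. miR-18a-3p was at 0.0065 (-0.57 to 0.59, a P of 0.980), negative under upper quartile and DESeq2 scaling. miR-18a-5p, from the same hairpin, was at -0.32 (-1.01 to 0.38, a P of 0.322), and at -0.57 without unexposed replicate 1 and -0.052 without unexposed replicate 2. These intervals reach well to either side of 0, so a lack of change was not shown.

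**Figure D2:**
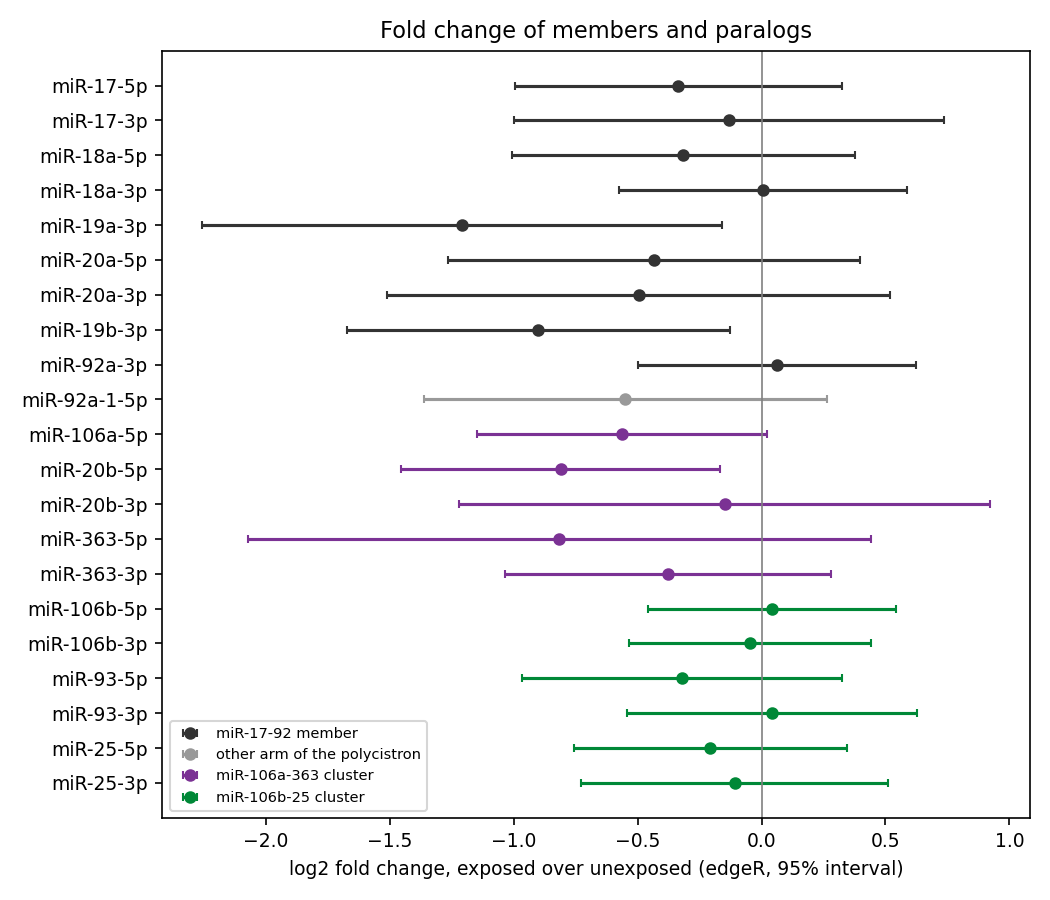
log2 fold change of exposed over unexposed cells with its 95% interval in edgeR, for the 9 members, miR-92a-1-5p and the tested miRNAs of the paralog clusters. The intervals of miR-19a-3p, miR-19b-3p and miR-20b-5p lie below 0, and those of the other 18 include it.

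The members did not share 1 pattern over the 4 libraries. Each level was compared with the same miRNA's mean over the libraries on the log2 scale. In unexposed replicate 1 the deviation was 1.20 for miR-19a-3p, 0.81 for miR-19b-3p, 0.66 for miR-20a-5p and 0.49 for miR-17-5p, but -0.10 for miR-92a-3p and 0.038 for miR-18a-3p. Exposed replicate 1 was the lowest library and unexposed replicate 1 the highest for 5 of the 9 members, the guides of the miR-17 and miR-19 families and miR-20a-3p. Of all tested miRNAs, 12.1% had this pair of extremes. By library size alone, without TMM, the numbers were 3 of the 9 members and 3.94%.

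The closest pair among the members was miR-18a-3p and miR-92a-3p, whose deviations differed by a root mean square of 0.10 over the 4 libraries. miR-17-5p and miR-20a-5p differed by 0.14 and miR-19a-3p and miR-19b-3p by 0.24. miR-18a-5p and miR-92a-3p differed by 0.23. The pairs that share a hairpin were at 0.27 for the arms of miR-18a, 0.28 for those of miR-20a and 0.58 for those of miR-17. Pairs from different hairpins lay both closer and wider than these. The widest pair was miR-17-3p and miR-19a-3p, at 0.86.

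**Figure D3:**
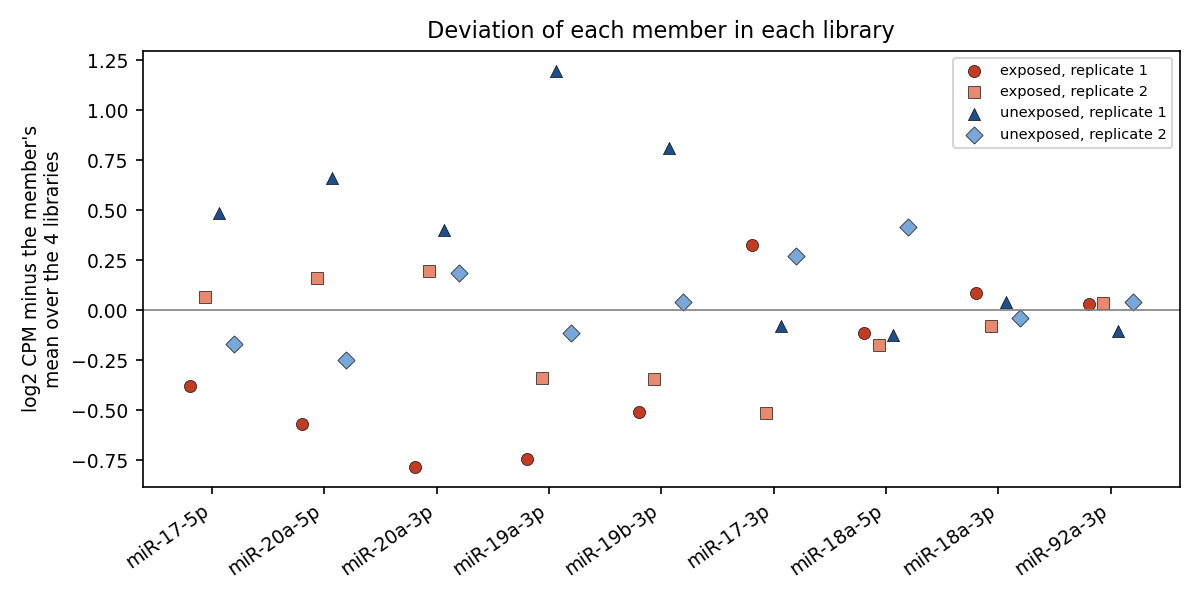
log2 CPM of each member in each of the 4 libraries, less the member's mean over them, with 1 symbol per library. For miR-17-5p, miR-20a-5p, miR-20a-3p, miR-19a-3p and miR-19b-3p unexposed replicate 1 is highest and exposed replicate 1 lowest, while all points of miR-92a-3p and miR-18a-3p lie within about 0.1 of 0.

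The marker miRNAs did not move as 1 group between the libraries. Of the 10 neuronal miRNAs, 1 was highest in unexposed replicate 1 and lowest in exposed replicate 1. This was miR-7-5p, at 79250 and 135236 CPM with ethanol and 187070 and 146053 CPM without, the same order of the 4 libraries as for miR-19a-3p and miR-19b-3p. The neuronal miR-124-3p went the other way, at 5406 and 3362 CPM with ethanol and 2948 and 2190 CPM without, with a log2 fold change of 0.77 and the only unadjusted P under 0.05 of its list (0.0316 in edgeR). The exposed libraries were the higher without overlap for 3 of the 10 (miR-124-3p, miR-9-3p and miR-132-3p) and the lower for 1. Over all tested miRNAs the shares were 18.8% and 14.6%. In the other lists the exposed libraries were the higher for 2 of 4 detected glial and 1 of 4 blood and endothelial miRNAs. They were the lower for 3 of 6 pluripotency and 1 of 8 mesenchymal and muscle miRNAs, several of them too low to be tested. Of the 8 mesenchymal and muscle miRNAs, 2 had the same pair of extreme libraries as miR-7-5p, miR-1-3p at 175 to 401 CPM and miR-145-5p at 0.119 to 0.509 CPM. None of the detected glial (4), blood and endothelial (4) or pluripotency (6) miRNAs did. The part of these differences between cultures in the result for the miR-19 guides was not tested.

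Among the tested miRNAs outside the cluster, the 5 whose pattern over the 4 libraries was most like that of miR-19b-3p were miR-122b-5p, miR-3660, miR-1248, miR-494-3p and miR-146a-5p. Their root mean square differences on the log2 scale were 0.12 to 0.18, against a median of 0.58 over all tested miRNAs. miR-146a-5p was at 23.3 and 31.3 CPM with ethanol and 49.4 and 32.6 CPM without. For the members' sum the 5 nearest were miR-423-3p, miR-544b, miR-6511b-3p, miR-1306-5p and miR-135b-5p, with differences of 0.017 to 0.035 against a median of 0.263. The sum was nearly flat, at 2.63% to 2.78% of the TMM-scaled library size, so these are miRNAs that varied little. miR-423-3p was at 5395 and 5528 CPM with ethanol and 5579 and 5501 CPM without.

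The summed members took 2.99% and 2.72% of all counts with ethanol and 2.31% and 2.88% without, which overlap. Without miR-92a-3p, left out after its weight in the sum was seen, the other 8 took 0.314% and 0.412% with ethanol and 0.494% and 0.356% without, which overlap as well. The log2 ratio of the exposed to the unexposed mean share was 0.14 for the sum and -0.23 for the 8. For the sum it was -0.0055 with TMM-scaled library sizes and 0.020 without the 3 most abundant miRNAs, and it ranged from -0.011 without unexposed replicate 1 to 0.31 without unexposed replicate 2.

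Within each seed family the cluster supplied a different part. For the miR-17 seed it gave 58.7% and 62.1% of the family's counts with ethanol and 64.0% and 59.0% without. Most of the rest was miR-93-5p, of the miR-106b-25 cluster, at 32.1% to 35.1%. miR-18a-5p gave 96.96% to 98.6% of the counts with its seed. Among the counted miRNAs found in the RefSeq table, only miR-19a-3p and miR-19b-3p have theirs, so the whole of this family is among the members. miR-92a-3p gave 40.2% and 42.3% of its family with ethanol and 50.9% and 41.2% without, beside 24.96% to 39.0% for miR-92b-3p and 19.2% to 24.9% for miR-25-3p.

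Near-identical paralogs of the X-linked miR-106a-363 cluster are shown because a read error or a loose alignment could move reads between them and the members.
hsa-miR-106a-5p: aAAAGUGCuuacagugcagguag
hsa-miR-20b-5p: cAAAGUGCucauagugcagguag
hsa-miR-18b-5p: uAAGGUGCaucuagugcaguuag
Relative to the member, miR-106a-5p differs from miR-17-5p by C1A, miR-20b-5p from miR-20a-5p by U1C and U10C, and miR-18b-5p from miR-18a-5p by A20U. Their counts were small beside the members', at 2.92% to 4.24% of miR-17-5p, 2.24% to 5.58% of miR-20a-5p and 0.714% to 3.14% of miR-18a-5p. The 5p arms that tell the miR-92a genes apart gave 3 or 4 counts per library for miR-92a-2-5p of the X-linked gene, against at least 143 for miR-92a-1-5p. Since miR-92a-1-5p had only 0.0337% to 0.0834% of the miR-92a-3p counts, these arms do not divide miR-92a-3p between the genes. For miR-19b-3p even this comparison could not be made. miR-19b-1-5p had at most 1 count and miR-19b-2-5p had 0 in each library, where 3 counts would be 0.121 to 0.248 CPM.

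The paralog clusters were compared in the same fit. Of the 10 matures listed for miR-106a-363, 5 were tested and 1 had an unadjusted P under 0.05. This was miR-20b-5p, which shares the miR-17 seed, at 45.7 and 64.5 CPM with ethanol and 83.2 and 110 CPM without. Its log2 fold change was -0.81 (standard error 0.28, unadjusted P = 0.0197 in edgeR, adjusted p = 0.922), with the highest level in unexposed replicate 2 rather than 1. By library size alone it was -0.70, at which edgeR's unadjusted P was 0.0653. Leaving out exposed replicate 1 moved it to -0.59, and leaving out unexposed replicate 1 to -1.01. miR-106a-5p, at 35.8 and 44.9 CPM and at 63.8 and 55.3 CPM, had a log2 fold change of -0.56 (unadjusted P = 0.0568 in edgeR, exact permutation p = 0.333). The groups did not overlap for 2 of the 5, nor for 2 of the 9 members. Nor did they for 1 of the 6 tested matures of miR-106b-25, miR-25-5p. The exposed libraries were lower in each case. Over all tested miRNAs 14.6% had the exposed libraries below the unexposed and 18.8% above.

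Of miR-106b-25, 6 of 6 matures were tested and 0 had an unadjusted P under 0.05 or an adjusted p under 0.05 in edgeR. Their median log2 fold change was -0.076. miR-93-5p, at 1623 and 2245 CPM with ethanol and 2895 and 1937 CPM without, was highest in unexposed replicate 1 and lowest in exposed replicate 1, as its seed relatives miR-17-5p and miR-20a-5p were. Its log2 fold change was -0.32 (95% interval -0.97 to 0.33). It moved to -0.011 without unexposed replicate 1, and to -0.61 without unexposed replicate 2. Without exposed replicate 1 or exposed replicate 2 it was -0.11 or -0.57. miR-25-3p, with the miR-92 seed, was at -0.11 (-0.73 to 0.51), and this turned positive by library size alone. Of the other arms of the miR-17-92 polycistron only miR-92a-1-5p could be tested. The opposite arm miR-92a-3p, whose counts can also hold reads of MIR92A2, had a log2 fold change of 0.062. That of miR-92a-1-5p was -0.55 (95% interval -1.36 to 0.26, unadjusted P = 0.157 in edgeR). Without unexposed replicate 2 it was -0.89, and without unexposed replicate 1 it was -0.18. Leaving out exposed replicate 1 or exposed replicate 2 gave -0.29 or -0.86.

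**Figure D4:**
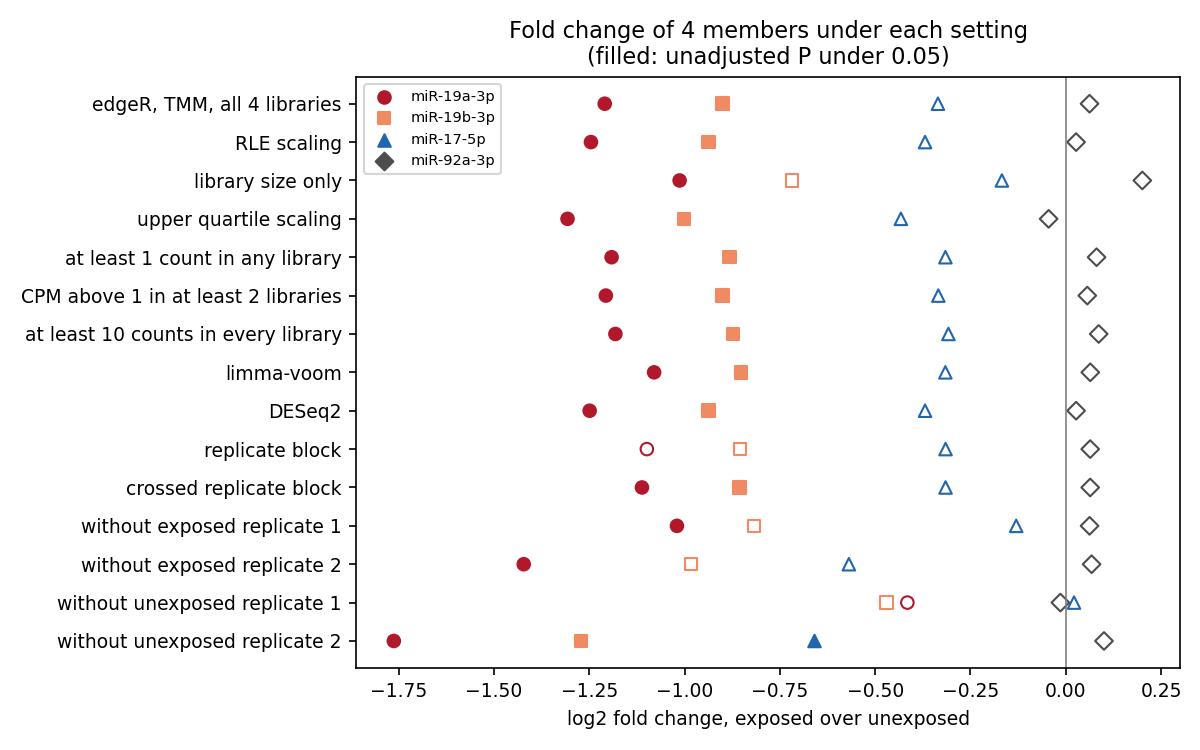
log2 fold change of miR-19a-3p, miR-19b-3p, miR-17-5p and miR-92a-3p under each scaling, filter, test, block and left-out library. Filled symbols mark an unadjusted P under 0.05, which for a left-out library rests on a group of 1 library. The miR-19 guides are below 0 in each row, nearest to it without unexposed replicate 1 (-0.42 and -0.47), while miR-92a-3p stays within about 0.2 of 0.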

How the data were processed

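Small RNA was profiled in 4 libraries of H1-derived cortical interneurons, 2 exposed to ethanol and 2 unexposed. The authors made NEBNext libraries, processed the reads with CAP-miRseq (its version is not given in the sources used here) and deposited raw read counts per mature miRNA. The submitters' processing notes name hg19. The miRNA release and the treatment of reads that fit several miRNAs are not given in the sources used here. Groups and replicate numbers came from the sample titles.

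Counts were fitted as deposited with edgeR 4.0.16 in R 4.3.3 (filterByExpr by group, minimum count 10 and minimum total 15, TMM, quasi-likelihood test, no covariates, Benjamini-Hochberg adjustment over 863 miRNAs). Standard errors came from the F statistic. Other scalings and filters, DESeq2 1.42.0, voom in limma 3.58.1, a block by replicate number and fits lacking 1 library served as alternatives. The code was tested on simulated counts. Arm ratios had 0.5 added to each count. The miRNAs named were the 9 members, the other arms of the polycistron, both paralog clusters, marker lists and the 5 nearest patterns. The members and lists were chosen with earlier results of these data known. Chi-square per degree of freedom was 795 and 712 between replicates, far above sampling noise, so each library was counted as 1 sample.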

Additional observations from a re-analysis of the deposited data

How the results depend on the processing

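The 2 members with an unadjusted P under 0.05 were 2 under 8 of the 10 alternatives that keep all 4 libraries. By library size only the number was 1 (miR-19b-3p at -0.72, where edgeR's unadjusted P was 0.0828) and the members' median log2 fold change -0.19, while the median over all tested miRNAs moved to 0.14 (-0.12 with upper quartile scaling, -0.010 with TMM). The labels do not pair cultures of the same number, and the differences between replicates 1 and 2 in the 2 groups had a correlation of -0.21 across miRNAs. With the replicate block the number was 0 (miR-19a-3p at -1.10 and miR-19b-3p at -0.86, with unadjusted P values of 0.0576 and 0.0538 in edgeR), and 25 of all tested miRNAs had a P under 0.05, against 39. With the crossed replicate block, chosen after seeing the data, the numbers were 2 and 59.

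With 1 library left out in turn, the lone library is assumed to vary like the other group, so no calls are counted here. Across these fits the members' median log2 fold change ran from -0.64 (without unexposed replicate 2) to -0.13 (without exposed replicate 1). The lowest adjusted p of a member in edgeR was 0.922 with the filter and TMM scaling of the main fit. Among the edgeR fits that keep all 4 libraries it was lowest, at 0.157, with at least 1 count in any library. The summed share, 0.14 as a log2 ratio, was -0.22 without miR-19b-3p and miR-92a-3p, and -0.23 without miR-92a-3p.

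Signs near 0 turned with the scaling. miR-18a-3p was at -0.031 with RLE scaling and with DESeq2 and -0.10 with upper quartile scaling, miR-92a-3p at -0.045 with upper quartile scaling and miR-17-3p at 0.027 by library size only. By library size only miR-20b-3p was at 0.0084, miR-106b-3p at 0.097 and miR-25-3p at 0.014, and with upper quartile scaling miR-106b-5p was at -0.067 and miR-93-3p at -0.068.

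With 1 library left out, the sign also turned for the fold changes -0.66 to 0.022 for miR-17-5p, -0.62 to 0.24 for miR-17-3p, -0.080 to 0.093 for miR-18a-3p, -0.85 to 0.081 for miR-20a-5p, -0.014 to 0.10 for miR-92a-3p, -0.51 to 0.14 for miR-20b-3p, -1.42 to 0.22 for miR-363-5p, -0.71 to 0.015 for miR-363-3p, -0.079 to 0.12 for miR-106b-5p, -0.13 to 0.031 for miR-106b-3p, -0.083 to 0.16 for miR-93-3p and -0.36 to 0.15 for miR-25-3p. The exposed minus unexposed difference of the log2 ratios then ranged over -0.77 to 0.51 for miR-17-5p/miR-17-3p, -0.61 to 0.018 for miR-18a-5p/miR-18a-3p, -0.17 to 0.53 for miR-20a-5p/miR-20a-3p, -0.041 to 0.50 for miR-19b-3p/miR-19a-3p, -0.78 to 0.021 for miR-17-5p/miR-92a-3p and -0.24 to 0.048 for miR-20a-5p/miR-17-5p. The members with under 100 counts in most libraries, miR-19a-3p, miR-17-3p and miR-20a-3p, are the least precise by depth.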
